A study of Mus musculus with 302 samples.

Results

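The genes described here code for nuclear-encoded subunits of oxidative phosphorylation, and their liver RNA was followed over 302 F2 mice. A probe was a member when the array's annotation gave it 1 gene whose symbol began with Ndufa, Ndufb, Ndufc, Ndufs, Ndufv, Sdh, Uqcr or Atp5, or with Cox and a digit from 4 to 8. The rule uses names alone and no measured value. It found 48 probes of 40 genes among 23562 probes and 10838 named genes. Of these genes, 14 belong to complex I (17 probes), 14 to complex IV (14 probes) and 9 to complex V (14 probes). The other 3, Ndufaf1, Ndufaf2 and Ndufaf3, match the letters of the rule but are assembly factors of complex I, which help to build it and are not part of it. No probe in the annotation table used here carried an Sdh or Uqcr symbol, so complexes II and III were not analysed here.

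Oxidative phosphorylation takes place in the inner mitochondrial membrane. Complex I takes electrons from NADH and complex IV passes them to oxygen, both pumping protons, and complex V is the ATP synthase that lets the protons back. The mitochondrial genome encodes a few core subunits, and the subunits followed here are made from nuclear genes, whose transcription is known to depend on factors such as NRF1, GABP and ERR-alpha with the coactivator PGC-1-alpha.

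The animals were the second generation of C57BL/6J mice crossed with C3H/HeJ mice, both inbred, in both directions. They received chow (4% fat) to 8 weeks of age, then 12 weeks of a high-fat Western diet (42% fat, 0.15% cholesterol), and were killed at 20 weeks after a 12 h fast. Every mouse thus shared diet, age and fast, and the labels give no sex, genotype or direction of the cross for any of them, so there was 1 group and no treated or control mice. Each array compared the RNA of 1 liver, in Cy3, with a pool of equal parts of all of them, in Cy5. Neither the base nor the direction of the deposited ratio is stated. The values were taken to be log10 ratios with the mouse above the pool, a reading that is likely from the values but not settled. A value is therefore relative to the pool for its own probe, and levels of different genes cannot be ranked.

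The arrays differed in ways that no group explains. The SD over all probes of an array ran from 0.0697 to 0.258 with a median of 0.0975, and 3 arrays lay above 2 times that median. The correlation between arrays over all probes ran from -0.510 to 0.771, with 889 of 45451 pairs under -0.3, and all arrays have 1 dye orientation, so the direction was kept. The mice fell into 4 blocks of 77, 65, 82 and 78, by whether Eif2s3y, a Y-linked gene, lay below or above -0.8 and by whether the number in the title was up to 212 or above. The blocks entered as a correction and were not compared, no sex was assigned, and all values except those called deposited were centred on the block's mean. Of the members, Atp5b had values in 237 mice and Atp5a1 in 225, each with 1 block missing in full. The other 46 probes of 38 genes had values in every mouse, and none of these reached the limits of -2 and 2 at which the deposited values end.

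By the median SD, the members varied slightly less from mouse to mouse than the array's probes at large, and those of complex IV slightly more. Over the 46 probes the median SD after centring was 0.0569 in log10 (95% interval over mice 0.0529 to 0.0594), beside 0.0613 over all 23512 probes used. The median SD was 0.0526 for complex I, 0.0675 for complex IV and 0.0591 for complex V. Among single probes the widest was that of Cox7b, a small subunit of complex IV. Its deposited values ran from -0.239 to 0.364 with a median of -0.0105, and its centred SD of 0.0949 corresponds to a ratio of 1.96 between the 95th and the 5th percentile of mice. Cox8a (SD 0.0867), Cox7a2 (0.0847), Atp5e (0.0817) and Cox7c (0.0774) followed. All of these code for small subunits, Atp5e for the epsilon subunit in the central stalk of the ATP synthase. The narrowest were Ndufa4l2 (SD 0.0293), a relative of Ndufa4 known to be induced by low oxygen, Ndufv1 (0.0383), which carries the NADH-binding site of complex I, and Cox4i2 (0.0379), the lung-type form of subunit IV.

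**Figure D1:**
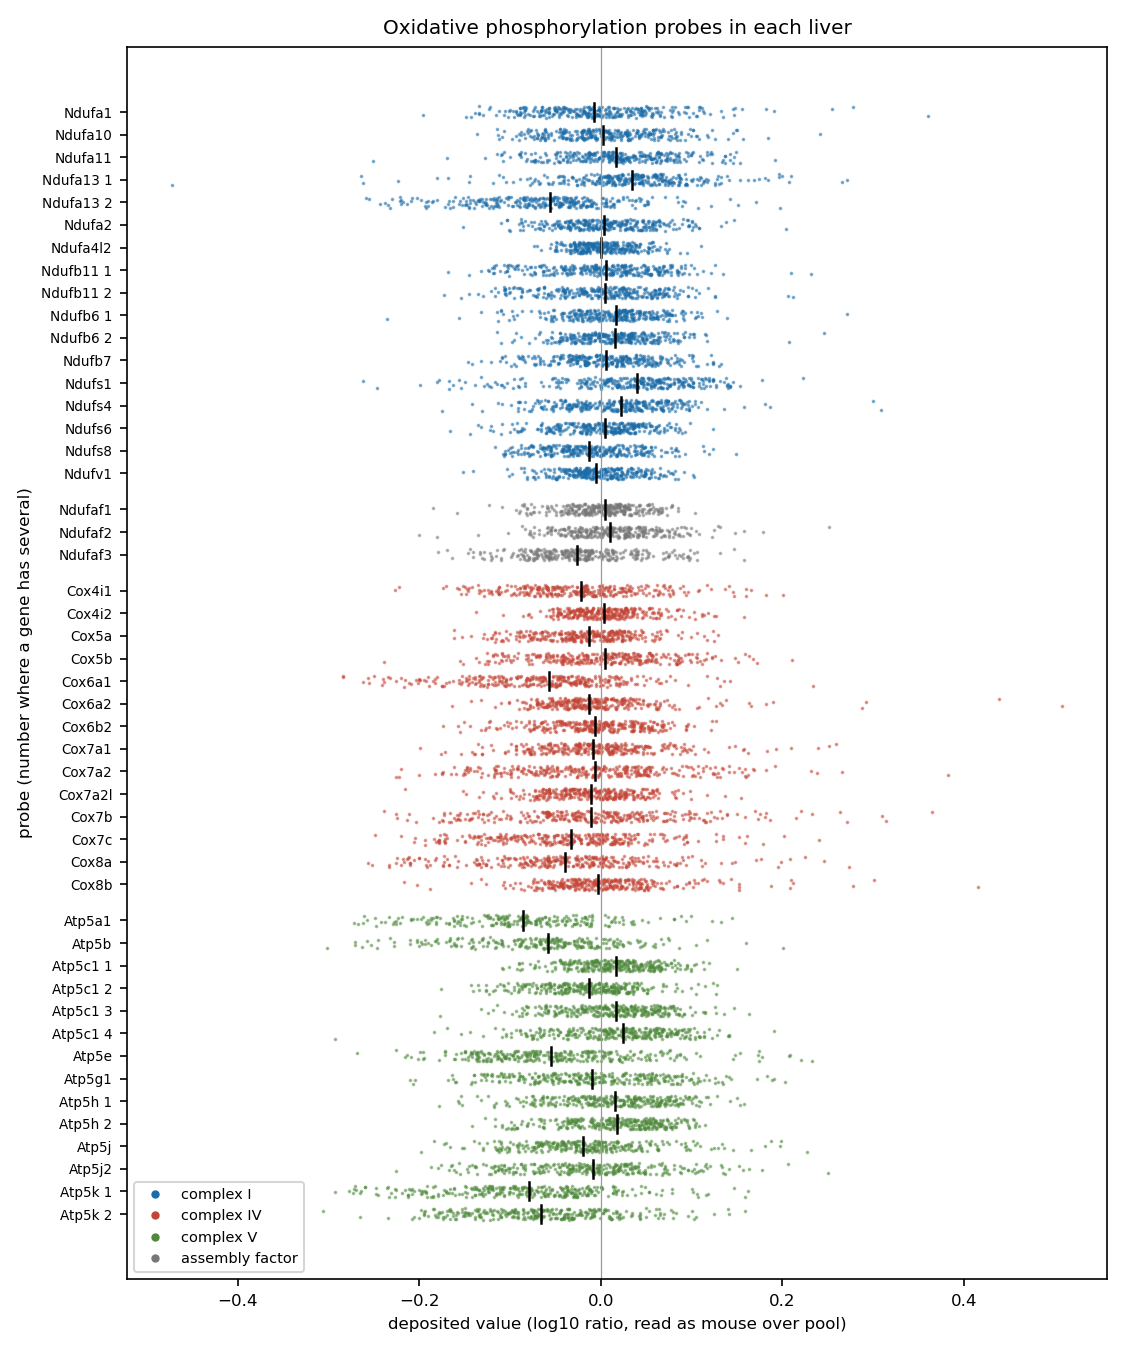
Deposited value (log10 ratio, read as mouse over pool, horizontal axis) of each member probe (rows, by complex) in each liver (1 point) before centring, with the median as a black bar. Cox7b spreads widest after centring (SD 0.0949) and Ndufa4l2 least (SD 0.0293), and single livers stand far out for Cox6a2 (up to 0.508), Cox8b (0.416) and probe 1 of Ndufa13 (down to -0.473).

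The 3 complexes rose and fell largely together over the mice. The mean of the complex I genes correlated with that of complex V at r = 0.836 (rho = 0.824, 0.829 to 0.858 within the 4 blocks). Complex IV correlated with complex V at r = 0.783 (rho = 0.775, blocks 0.732 to 0.813) and with complex I at r = 0.697 (rho = 0.684, blocks 0.628 to 0.758). With the 2 most extreme livers of the first complex left out, the values were 0.835, 0.785 and 0.697. The complex I mean moved over the smallest range, with a ratio of 1.22 between the 95th and the 5th percentile of mice, against 1.35 for complex IV and 1.40 for complex V. In bulk liver, fewer cells of a type and less RNA per cell cannot be told apart in such a mean. The r of the mean with the array's SD over all probes was 0.0663 for complex I, 0.169 for complex IV and 0.124 for complex V. Its r with the first principal component of all probes was 0.196 for complex I, -0.124 for complex IV and 0.214 for complex V. The complex IV mean also ran with the mouse number within blocks at r = -0.184, beside -0.0557 for complex I and -0.0851 for complex V. The part of these measures in the shared movement was not tested.

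Pooled over the 3 complexes, pairs of genes from the same complex moved only slightly more closely than pairs from different ones, and the complexes differed in this. The mean r over pairs was 0.227 ± 0.0210 within complex I (SE over mice, n = 302; blocks 0.182 to 0.316), 0.331 ± 0.0198 within complex IV (blocks 0.310 to 0.395) and 0.308 ± 0.0272 within complex V (blocks 0.270 to 0.362). Between complexes it was 0.228 for I and IV, 0.283 for I and V, and 0.307 for IV and V. The mean within complex IV thus stood above that between I and IV, and the mean within complex I below that between I and V. Without tissue-restricted forms it was 0.474 within complex IV, 0.281 between I and IV, and 0.387 between IV and V. Over all pairs the mean was 0.282 within complexes and 0.261 between them. The difference of 0.0204 had a 95% interval over mice of 0.00730 to 0.0322, and it was above 0 in each block, from 0.00430 to 0.0485. It was 0.0115 without block 4 and 0.0323 when each gene was represented by its probe with the largest SD. Complex I had the lowest mean r of the 3. Complex I minus complex IV was -0.104 in mean r (95% interval -0.155 to -0.0537, below 0 in 3 of 4 blocks) and complex I minus complex V was -0.0808 (-0.122 to -0.0332, below 0 in 2 of 4 blocks). With the probe of largest SD for each gene, the mean r was 0.188 within complex V and 0.176 within complex I, so most of the difference between complexes I and V was gone. Complexes IV and V differed by 0.0230, with an interval of -0.0440 to 0.0792 that includes 0.

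Many of the closest pairs of genes crossed complexes. Among 595 pairs of subunit genes, 34.1% share a complex, and among the 50 closest, all with r of at least 0.616, 21 (42%) did. The pairs have genes in common, and the difference between these shares was not tested. Atp5j, which codes for coupling factor 6 in the peripheral stalk of the ATP synthase, ran with Cox7b at r = 0.808 (blocks 0.762 to 0.848). Atp5j2, the f subunit of its membrane part, ran with Cox7a2, the liver-type form of subunit VIIa, at r = 0.807 (blocks 0.763 to 0.856). Atp5k, the e subunit that joins ATP synthases into dimers, ran with Cox6a1, the liver-type form of subunit VIa, at r = 0.802 (blocks 0.786 to 0.824). By probe, the r with Cox6a1 was 0.852 for probe 1 of Atp5k and 0.658 for probe 2. Atp5k and Cox6a1 both lie on chromosome 5, and the part of linkage in their r was not tested. At the other end, 86 pairs (14.5%) had an r below 0. The lowest was -0.536 (blocks -0.616 to -0.374), for Ndufa4l2 and Atp5h, the d subunit of the peripheral stalk.

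**Figure D2:**
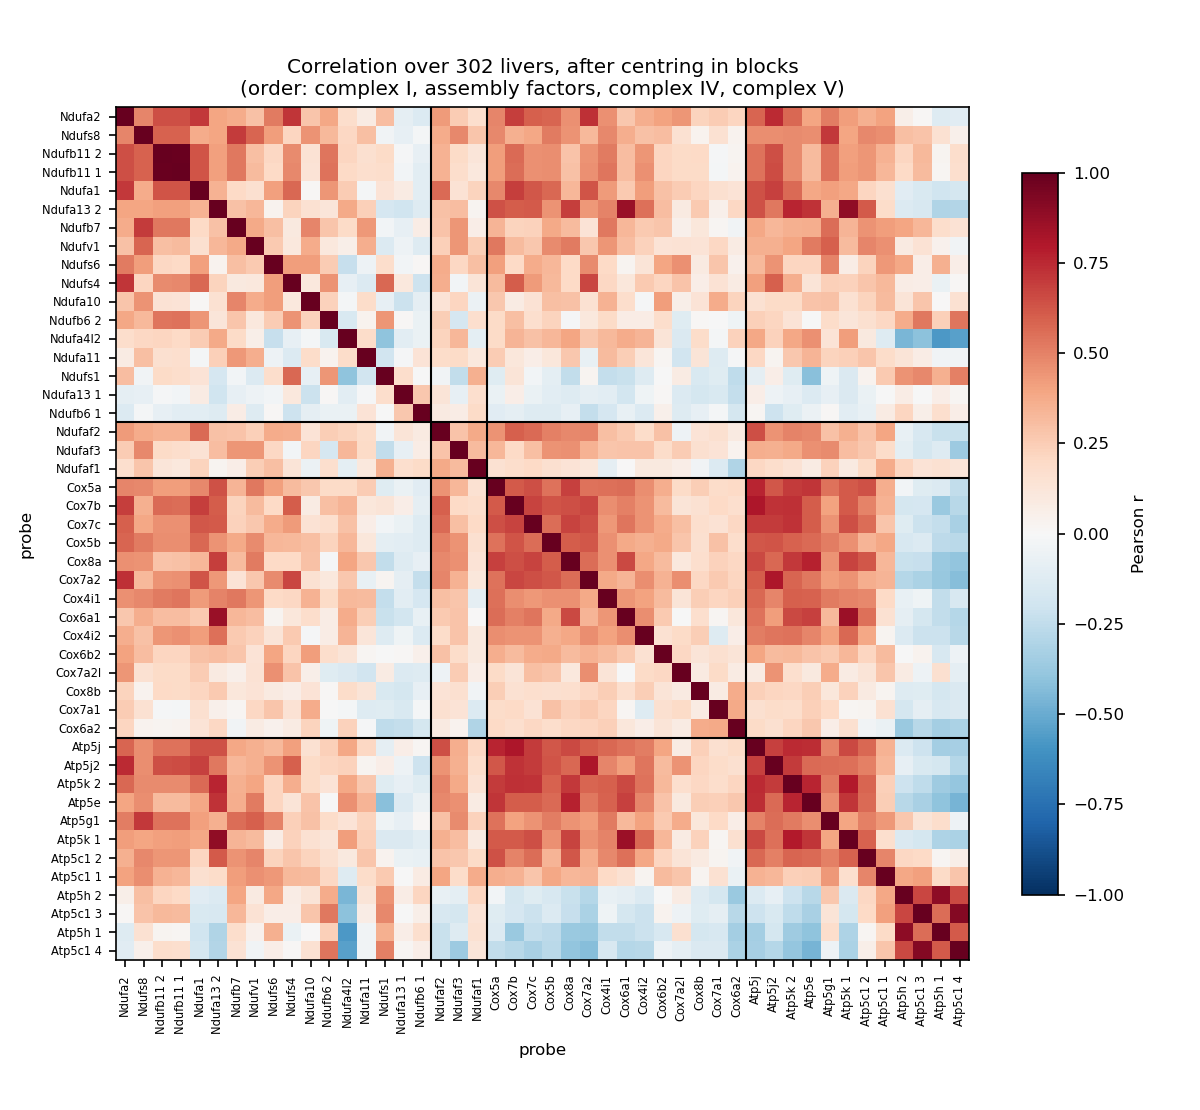
Pearson r over 302 livers, after centring, between member probes, shown on both axes in the order complex I, assembly factors, complex IV and complex V, with red above 0 and blue below. A block of red runs across the complexes, while Ndufs1, probe 1 of Ndufa13, probe 1 of Ndufb6, both probes of Atp5h and probes 3 and 4 of Atp5c1 stand outside it.

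Most members followed the rest of the set. Of the 46 probes, 25 correlated with the mean of the other member genes at over 0.5, and the median was 0.541. Of 23466 probes that are no members, 4.59% passed 0.5 and the median was 0.0429. Atp5j followed most closely, with deposited values from -0.198 through a median of -0.0195 to 0.227 and an r of 0.809 (blocks 0.792 to 0.849). Atp5j2 came next at r = 0.795 (blocks 0.757 to 0.846), with values from -0.226 through -0.00907 to 0.250. Both genes were thus high and low in the same livers as most subunits, in every block.

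Within complex I, Ndufa2, Ndufs8 and Ndufb11 followed the other genes of the complex most closely, at r = 0.745, 0.705 and 0.696. Ndufs8 carries iron-sulphur clusters near the quinone site, and Ndufa2 and Ndufb11 are accessory subunits of the matrix arm and the membrane arm. Ndufa4l2 (r = 0.0810) and Ndufs1 (r = 0.113) followed least. Ndufa4l2 is counted in complex I by its name, but its relative Ndufa4 is now known as a subunit of complex IV, and its r with the complex IV mean was 0.376. In complex IV the closest were Cox7c (r = 0.739), Cox5a (0.739) and Cox7a2 (0.728), and the loosest Cox7a1 (0.271) and Cox7a2l (0.285), the latter known for its part in joining complexes into supercomplexes. In complex V the closest were Atp5g1, which codes for the ring-forming c subunit, at r = 0.683, Atp5j at 0.668 and Atp5j2 at 0.649. Atp5h (-0.0517) and Atp5c1 (0.268) were the loosest of that complex. The assembly factors ran with the mean of all members at r = 0.581 for Ndufaf2, 0.450 for Ndufaf3 and 0.244 for Ndufaf1.

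The promoters of the member genes were read for letters bound by known regulators. RefSeq promoters of GRCm38.p6 were at hand for 33 of the 40 member genes. The 250 bases before the start were searched on both strands for CGCATGCG (NRF1), CCGGAAG (GABP), AAGGTCA (ERR), GGGCGG (SP1) and AAGATGG (YY1), and overlapping matches were each counted. The NRF1 letters stood in 4 of the 33 promoters, or 12.1%, beside 1.75% of 27025 genes in the same table. The GABP letters stood in 7 (21.2%, beside 7.83%), the SP1 letters in 15 (45.5%, beside 35.4%), the YY1 letters in 1 (3.03%, beside 5.18%) and the ERR letters in 0 (beside 4.70%). In 14 of the 33 none of the 5 was found. All 4 promoters with the NRF1 letters are shown, and that of Atp5h because it followed the set least. Of the closest pairs named above, Atp5j, Atp5k and Cox6a1 carry the NRF1 letters, and Cox7b, Atp5j2 and Cox7a2 do not. Each is written 5′ to 3′ in the direction of its gene and ends at the base before the start, with matches in capitals. They lie at chr16:84834977-84835226 (minus strand) for Atp5j, chr5:108434400-108434649 (minus) for Atp5k, chr5:115348959-115349208 (minus) for Cox6a1, chr17:56717512-56717761 (plus) for Ndufa11 and chr11:115419920-115420169 (minus) for Atp5h.
Atp5j: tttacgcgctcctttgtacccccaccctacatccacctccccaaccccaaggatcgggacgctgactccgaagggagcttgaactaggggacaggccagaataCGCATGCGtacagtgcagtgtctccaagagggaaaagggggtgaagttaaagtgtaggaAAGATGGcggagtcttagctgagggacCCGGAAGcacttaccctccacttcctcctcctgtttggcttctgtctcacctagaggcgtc
Atp5k: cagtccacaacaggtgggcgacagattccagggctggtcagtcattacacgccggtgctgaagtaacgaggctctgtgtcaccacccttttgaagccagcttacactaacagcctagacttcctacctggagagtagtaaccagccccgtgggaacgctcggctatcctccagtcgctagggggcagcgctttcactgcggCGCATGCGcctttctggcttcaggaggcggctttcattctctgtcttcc
Cox6a1: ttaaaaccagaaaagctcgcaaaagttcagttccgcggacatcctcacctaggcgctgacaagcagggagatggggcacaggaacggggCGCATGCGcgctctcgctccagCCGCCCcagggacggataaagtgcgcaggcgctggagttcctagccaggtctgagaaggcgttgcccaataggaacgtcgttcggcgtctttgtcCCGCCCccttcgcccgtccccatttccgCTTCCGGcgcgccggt
Ndufa11: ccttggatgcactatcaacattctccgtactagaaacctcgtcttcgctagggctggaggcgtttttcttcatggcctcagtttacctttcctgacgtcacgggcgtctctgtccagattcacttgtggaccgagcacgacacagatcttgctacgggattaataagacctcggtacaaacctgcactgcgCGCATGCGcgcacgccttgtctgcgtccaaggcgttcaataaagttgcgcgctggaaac
Atp5h: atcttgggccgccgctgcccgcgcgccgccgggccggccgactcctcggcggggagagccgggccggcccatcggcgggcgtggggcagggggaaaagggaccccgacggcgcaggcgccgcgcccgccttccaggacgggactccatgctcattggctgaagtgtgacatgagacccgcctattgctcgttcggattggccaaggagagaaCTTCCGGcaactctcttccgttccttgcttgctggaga
In Atp5j the capitals mark NRF1, YY1 and GABP letters from left to right. In Cox6a1 they mark NRF1, SP1, SP1 and GABP letters, with the SP1 and GABP letters on the opposite strand. In Atp5k and Ndufa11 they mark NRF1 letters, and in Atp5h GABP letters on the opposite strand. The 4 genes with the NRF1 letters followed the set unequally, from r = 0.809 for Atp5j and 0.759 for Atp5k to 0.545 for Cox6a1 and 0.231 for Ndufa11. Their median r was 0.652, beside 0.543 for the 28 genes without these letters. With and without the GABP letters the median r was 0.545 and 0.581, and for the SP1 letters 0.499 and 0.607. These differences were not tested. Atp5j has 2 starts in the table, of which 1 is shown. A match describes the letters only, and binding was not measured.

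Several probes that ran apart belonged to genes whose own probes disagreed. For Ndufa13, an accessory subunit of complex I, probe 1 followed the set at r = -0.0790 and probe 2 at 0.654, and the probes correlated with each other at -0.203 (blocks -0.305 to -0.0616). For Ndufb6 the values were -0.0900 and 0.330, with r = -0.0643 between the probes. Atp5c1, the gamma subunit that turns inside the ATP synthase, has 4 probes. Its probes 3 and 4 correlated at 0.916 with each other and followed the set at -0.0358 and -0.217, whereas probes 1 and 2 correlated at 0.491 and followed it at 0.499 and 0.630. In these 3 genes the direction of a statement therefore depends on the probe, and probes of a gene are not replicates of it. The probes of Ndufb11 (r = 0.990), Atp5h (0.891) and Atp5k (0.790) moved together. Such disagreement was common on this array: over 1150 genes with several probes the median r was 0.123, and 69.2% of the genes lay under 0.3.

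A few members stood apart with probes that did agree or with a single probe. Atp5h had an r of -0.183 and 0.0220 with the other members for its probes, with deposited values of probe 1 from -0.179 through 0.0157 to 0.158. Ndufs1, the largest iron-sulphur subunit of complex I, had values from -0.262 through 0.0403 to 0.223 and an r of -0.0125 with the other members (blocks -0.177 to 0.186). It was not flat, since its centred SD of 0.0670 exceeded that of 56.9% of all probes. Ndufs1 and Atp5h thus varied about as much as other members, in other livers.

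Most tissue-restricted forms of complex IV subunits moved less closely with the set than most common forms, a difference that was not tested. The 9 common complex IV genes had a mean r of 0.474 among themselves, the 5 restricted forms one of 0.159, and the mean r between both kinds was 0.255. The restricted forms are Cox6a2, Cox7a1 and Cox8b of heart and muscle, Cox6b2 of testis, and Cox4i2. Their r with all other members was 0.160 for Cox6a2, 0.214 for Cox7a1, 0.245 for Cox8b, 0.453 for Cox6b2 and 0.504 for Cox4i2, and Ndufa4l2 had 0.254. Of the 9 common forms, 8 lay between 0.545 (Cox6a1) and 0.757 (Cox5a), while Cox7a2l, at 0.278, followed less closely than Cox6b2 and Cox4i2. Cox6a2 ran up to 0.508 in single livers from a median of -0.0132. The 7 skeletal muscle genes measured, all tissue markers foreign to liver, correlated with the means of complexes I, IV and V at 0.375, 0.478 and 0.405. Blocks ran from 0.170 to 0.624 for complex IV. The complex IV mean includes Cox6a2, Cox7a1 and Cox8b, and without tissue-restricted forms the values were 0.348, 0.370 and 0.405. Of the 7 muscle genes, 3 followed the mean of all members at over 0.3. Pvalb (r = 0.473) and Ckm (0.423) did so most closely, and Mylpf least (0.161). The mean of 4 brown fat genes ran with complexes I, IV and V at 0.144, 0.130 and 0.0206, and these genes had a mean r of -0.0357 among themselves. The part of muscle or fat tissue in these values was not tested.

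Each probe was then fitted on the level of single genes with limma, with the 4 blocks as a factor, over all probes on the array, and a call means a Benjamini-Hochberg adjusted p under 0.05. On Cox4i1, the common form of subunit IV, 37 of 45 member probes ran in the same direction, beside 33% of all probes, and 4 against it, beside 24%. Cox4i1 had deposited values from -0.227 through -0.0220 to 0.20. The highest partial r, 0.596, was with probe 2 of Atp5k (limma adjusted p = 7.71e-28), and the lowest, -0.245, with probe 1 of Atp5h (limma adjusted p = 5.73e-05). All 13 other complex IV probes were called in the same direction. The share of members called was above that of the array in the first direction and below it in the second. Here and below, counts are of probes, so a gene with several probes can count more than once.

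Atp5b codes for the catalytic beta subunit of the ATP synthase, with values from -0.302 through -0.0583 to 0.201 in 237 mice. Of 46 member probes, 33 ran with it, beside 29.8% of all probes, and 3 against it, beside 22.3%. The closest were probe 1 of Atp5k (partial r = 0.861, limma adjusted p = 1.32e-67), probe 2 of Ndufa13 (0.841) and Cox6a1 (0.837). These 3 probes, from 3 complexes, also correlated with each other at 0.852 to 0.888 over all 302 mice. Probe 1 of Ndufa13 was called the other way (partial r = -0.150, limma adjusted p = 0.0431), so the direction for that complex I gene depends on the probe. The 3 members that ran against Atp5b became 6 with 2 marker clusters in place of blocks and 1 with ranks.

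Ndufs1 gave a different picture. Of 45 member probes 14 ran with it, beside 25.1% of all probes, and 12 against it, beside 27.1%, so the set as a whole stood near the array. The probe counts differed between complexes: 8 of 16 complex I probes and 5 of 12 complex V probes ran with Ndufs1. Of 14 complex IV probes 0 did, and 5 ran against it. The 5 complex V probes belong to Atp5c1 and Atp5h alone, which have several probes each. The complex I count holds both probes of Ndufb11, whereas the 14 complex IV probes are of 14 genes. At an unadjusted limma p under 0.05 the complex IV counts were 1 with it and 8 against it. Closest to it were Ndufs4, an accessory subunit next to the NADH-binding module (partial r = 0.576, limma adjusted p = 3.58e-26), probes 4 and 3 of Atp5c1 (0.503 and 0.484) and probe 2 of Atp5h (0.450). Atp5e (partial r = -0.417, limma adjusted p = 5.54e-13) and Ndufa4l2 (-0.397) ran against it most. The members that stood apart from the set were thus partly high in the same livers as Ndufs1.

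Regulators of mitochondrial genes were set against the members in the same way. Esrra codes for ERR-alpha, and 34 of 46 member probes ran with its RNA, beside 30.7% of all probes, and 7 against it, beside 26.5%. All 14 complex IV probes ran with it, as did 10 of 17 of complex I and 8 of 12 of complex V. The closest were Atp5e (partial r = 0.593, limma adjusted p = 6.91e-28) and Cox8a (0.537), and the most opposed probe 4 of Atp5c1 (-0.420) and Ndufs1 (-0.419). With the first principal component of all probes as a covariate, 3 rather than 7 ran against Esrra. Tfam codes for the factor that packs and transcribes mitochondrial DNA. It ran with 11 member probes, beside 21.8% of all probes, and against 12, beside 20.1%, a share near the array's in both directions. With Tfam 0 of 14 complex IV probes were called upward by limma (0 also at an unadjusted p under 0.05) and 3 downward, Cox6a1 most (partial r = -0.316, limma adjusted p = 3.38e-07), while 6 of 17 complex I probes were called upward. Ppargc1a codes for PGC-1-alpha, which rises on fasting in liver. It ran with 2 member probes, beside 12.9% of all probes, and against 5, beside 14%, so fewer members were called than on the array at large. The 2 were Ndufs4 (partial r = 0.267, limma adjusted p = 3.23e-05) and Ndufs1 (0.231). With the mouse number as a covariate, 1 rather than 5 ran against it. Of the 26 probes of complexes IV and V, 0 were called by limma (3 upward and 1 downward at an unadjusted p under 0.05), with partial r between -0.124 and 0.128. Among the 14 regulators measured, Sirt3, a mitochondrial deacetylase, followed the mean of all members most closely (r = 0.543) and Esrra next (0.430), and Gabpa, a subunit of GABP, ran against it most (-0.431).

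**Figure D3:**
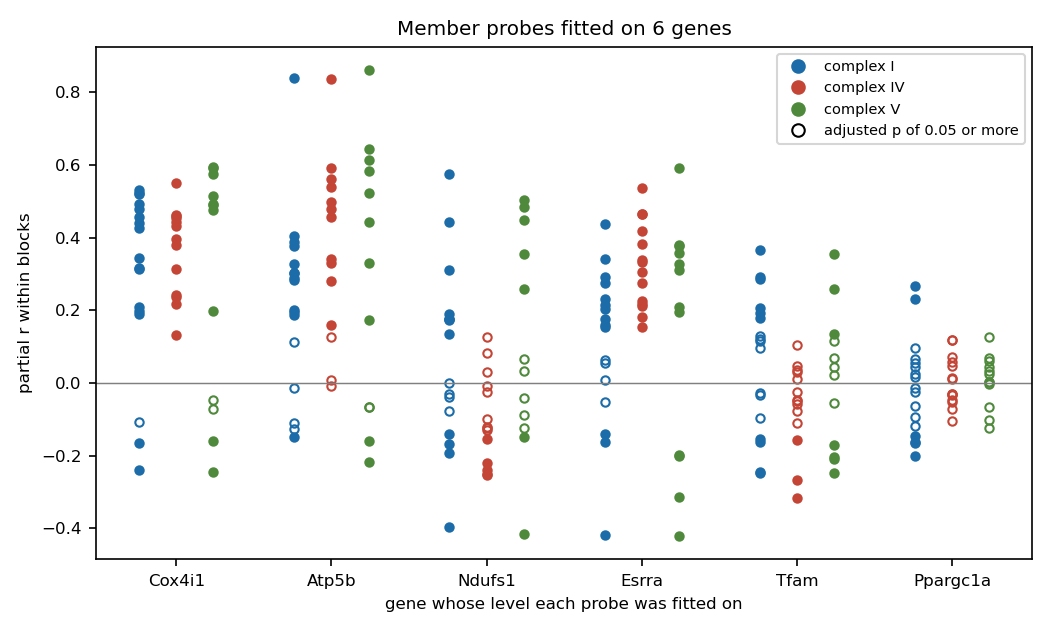
Partial r within blocks (vertical axis) of each member probe of complexes I, IV and V with the level of 6 genes (horizontal axis), with filled points for a limma adjusted p under 0.05. Complex IV probes lie above 0 for Esrra and Cox4i1, at or below 0.128 for Ndufs1, and without a call for Ppargc1a.

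Other gene lists placed the 3 complexes differently. The mean of 30 mitochondrial ribosomal protein genes, whose products translate the mitochondrial subunits, correlated with complexes I, IV and V at 0.672, 0.644 and 0.666, and no difference between complexes had an interval that left out 0. In limma fits on that mean 37 of 46 member probes ran with it, beside 38.3% of all probes, and 3 against it (1 with the mouse number as a covariate), beside 24.8%. Of these 30 genes 17 followed the mean of all members at over 0.3, with Mrps21 (r = 0.796) and Mrpl23 (0.679) first and Mrpl37 (-0.357) last. The mean of 40 cytosolic ribosomal protein genes correlated with complex IV at 0.709, above its 0.579 with complex I (complex I minus complex IV -0.130, 95% interval -0.208 to -0.0589). It was followed by 36 of 46 member probes, beside 34.9%, and opposed by 4, beside 25.8%. Rps15 (r = 0.690 with the mean of all members) and Rpl37a (0.685) were first and Rps6 (-0.00730) last. The r of complex IV with this mean (0.709) stood beside its r of 0.697 with complex I.

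Genes of the TCA cycle, which supplies the NADH that complex I oxidises, ran with complex I but hardly with complex IV. The mean of the 9 genes measured correlated with complex I at 0.328 (blocks 0.234 to 0.378), with complex V at 0.219 and with complex IV at 0.0372. The difference between complexes I and IV was 0.290 (95% interval 0.205 to 0.381), and 0.311 (0.225 to 0.404) without the tissue-restricted forms. In limma fits on this mean 17 of 46 member probes ran with it, beside 20.6% of all probes, and 2 against it (1 with the mouse number as a covariate, 4 with scaled arrays), beside 18.1%. Of complex I 8 of 17 were called upward, of complex V 6 of 12 and of complex IV 2 of 14. Ndufs1 had the highest partial r of all members with the TCA cycle mean (0.644, limma adjusted p = 3.49e-32), and probes 4 and 3 of Atp5c1 came next (0.445 and 0.443). The 9 genes were not a tight group, with a mean r of 0.0941 among themselves. Suclg1 (r = 0.474) and Idh3b (0.416) followed the mean of all members most closely and Suclg2 (-0.310) least.

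Mitochondrial import and dynamics genes, 18 measured, gave the same order: 0.366 with complex I, 0.320 with complex V and 0.0306 with complex IV (complex I minus complex IV 0.336, 95% interval 0.241 to 0.441). The first were Hspe1 (r = 0.498 with the mean of all members), a matrix co-chaperonin, and Mfn2 (0.470), a fusion protein, and the last Hspd1 (-0.292). For 12 assembly factors outside the rule the values were 0.356, 0.334 and 0.0640 (difference 0.292, 0.201 to 0.395), with Surf1 (0.519) and Ecsit (0.50) first and Atpaf1 (-0.378) last. In these lists too, the r of complex IV lay below those of complexes I and V. Over 13 fatty acid oxidation genes the mean ran at 0.163 with complex I and -0.0526 with complex IV, from Acads (0.594) and Hadh (0.553) to Acot2 (-0.459). Among 13 genes of ATP export and uncoupling, Slc25a11 (0.514) and Ckmt1 (0.463) came first and Vdac2 (-0.439) last. Among 4 genes of electron carriers and their supply, Coq8a (0.308) and Coq7 (0.150) came first and Gpd2 (-0.135) last. The order was not limited to mitochondrial lists: the mean of 30 proteasome genes ran with complexes I, V and IV at 0.129, 0.0219 and -0.105 (complex I minus complex IV 0.234, 95% interval 0.143 to 0.333). Among these genes the median r with the mean of all members was 0.0360, from Psmb1 (0.580) and Psmd3 (0.410) to Psmd5 (-0.592).

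**Figure D4:**
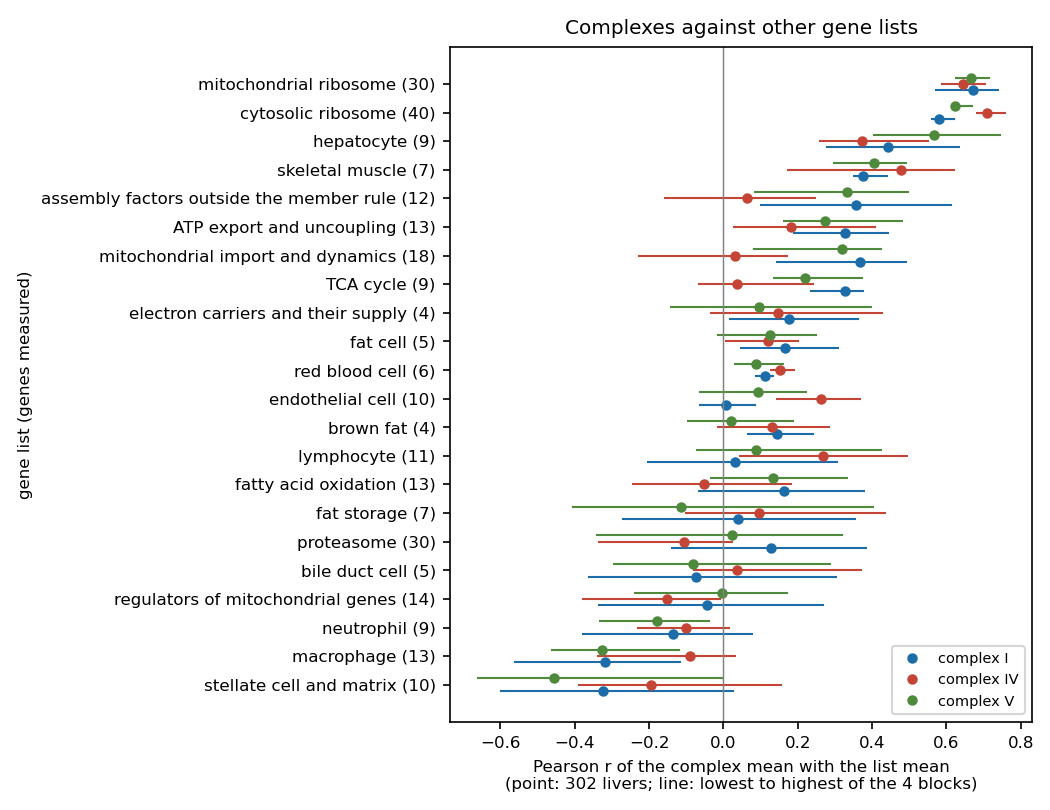
Pearson r of the mean of each complex with the mean of each gene list over 302 livers (points, horizontal axis), with a line from the lowest to the highest of the 4 blocks and the genes measured in brackets. The ribosomal lists lie right for all 3 complexes, the TCA cycle and import lists lie right for complexes I and V only (complex IV at 0.0372 and 0.0306), and the macrophage and stellate cell lists lie left.

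Fat storage genes, which mark fatty livers, showed no common direction with the set. The 7 genes measured ran with complexes I, IV and V at 0.0385, 0.0949 and -0.114, with blocks of complex I from -0.272 to 0.356. In limma fits 8 of 46 member probes ran with their mean, beside 19.9% of all probes, and 9 against it, beside 33.4%. With the first principal component as a covariate, 1 ran against it. Single members did move with it: Ndufa10, an accessory subunit of complex I, ran with fat storage at a partial r of 0.496 (limma adjusted p = 1.84e-18) and Cox7a1 at 0.375, while both probes of Ndufb11 ran against it (-0.317 and -0.315). Fitm1 (r = 0.213 with the mean of all members) and G0s2 (0.198) came first in that list and Fabp4 (-0.140) last.

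Lists of cell type markers differed in whether they ran with or against the members. The mean of 9 hepatocyte genes correlated with complexes I, IV and V at 0.444, 0.373 and 0.566, led by Hpd (r = 0.547 with the mean of all members) and Ass1 (0.407), with Serpina1a last (0.0301). The 13 macrophage genes ran against them at -0.318, -0.0895 and -0.325, and complex IV differed from complex I (complex I minus complex IV -0.229, 95% interval -0.316 to -0.138) and from complex V (complex IV minus complex V 0.236, 0.171 to 0.304). In limma fits on the macrophage mean 29 of 46 member probes ran against it, beside 36.7% of all probes, and 2 ran with it (0 with the first principal component as a covariate), beside 17.4%. Of complex V 10 of 12 probes ran against it, of complex I 12 of 17 and of complex IV 5 of 14. The strongest was probe 2 of Atp5h (partial r = -0.354, limma adjusted p = 3.16e-09), and the 2 that ran with it were Cox6a2 (0.264) and Cox7a1 (0.210). Lyz2 (-0.440) ran against the mean of all members most, and Cd68 (0.00463) and C1qa (-0.0526) least. The 10 stellate cell and matrix genes stood at -0.325, -0.195 and -0.456, with blocks from -0.600 to 0.0281 for complex I, -0.392 to 0.159 for complex IV and -0.663 to 0.00214 for complex V. In the highest block of each complex no negative relation was thus left. Single genes ran from Dcn (-0.0680) and Timp1 (-0.0832) to Reln (-0.438). The 10 endothelial genes stood at 0.00782, 0.263 and 0.0932, and the 11 lymphocyte genes at 0.0320, 0.267 and 0.0888. Both lists were loose, with a mean r of 0.165 among the endothelial genes and 0.167 among the lymphocyte genes. Their single genes ran both ways with the mean of all members. Among endothelial genes, Stab2 (0.49986) and Tie1 (0.4599) came first and Lyve1 (-0.347) last. Among lymphocyte genes, Cd79a (0.445) and Cd4 (0.364) came first and Klrd1 (-0.382) last. With the mean of all members, the lists of red blood cells, fat cells, bile duct cells and neutrophils ran at 0.145, 0.152, -0.0298 and -0.152. The part of these cell types in the shared movement of the members was not tested.

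Genes close on a chromosome can move together in an intercross, since mice inherit long segments. For each member the highest r with any of the 5 named genes on either side was taken, whichever gene gave it. The median of these highest r was 0.413, beside 0.318 over 10813 genes treated in the same way. The highest were Cox6a1 with Rplp0 (r = 0.622), Ndufs8 with Ndufv1 (0.583), both of them members, and Atp5j with Chodl (0.574). No member reached the 95th percentile of all genes, 0.659. Genes farther apart on 1 chromosome, such as Atp5k and Cox6a1 on chromosome 5, were not covered by this search.

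Outside the set, the genes whose pattern over the 302 livers was most like the mean of all members were Mrps21 (r = 0.796), Lamtor4 (0.749), Bckdha (0.737), Timm13 (0.730) and Hint2 (0.728). Mrps21, Bckdha, Timm13 and Hint2 code for mitochondrial proteins, and Lamtor4 for a lysosomal one. Further down came genes known from neurons, Kcnj4 (0.707), Npas4 (0.681) and Crhbp (0.677). Their presence in liver was not tested, and neither was what the ratio of a dim probe adds to such a correlation.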

How the data were processed

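Liver RNA of 302 mice was measured on 2-colour arrays, and the authors deposited 1 table of log ratios, taken as log10 ratios with the mouse above the pool. RNA extraction on spin columns and an automated aminoallyl amplification are given per the labels' protocols, and how spots were extracted, corrected and normalized is not given in the sources used here. Columns were assigned to mice through their titles. Probe names came from the array's annotation, in which 13655 probes had 1 symbol and 48 had several, and were updated to GRCm38.p6 through gene identifiers (12652 probes matched). Of the members, 33 had a promoter in the RefSeq table.

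Probes with values in at least 90% of mice were used and centred in 4 blocks, and probes of a gene were averaged for correlations. Means of pairwise r carry SEs and 95% intervals from 300 resamples of mice within blocks. Partial correlations and adjusted p-values are from limma 3.58.1 in R 4.3.3 with the block as a factor, two-sided, over all probes, and slopes are per SD of the predictor. Where the predictor had no value the mouse was left out. Other values were computed with Python 3.11.15, pandas 2.3.3 and numpy 2.4.6. The fits were tested on simulated data, in which the noise of each probe was drawn independently. That test does not cover movement that probes of an array share. Fits planned on Cyc1, Sdha and Uqcrc1 were not made, since no probe was named for them. P-values measure the spread between mice, whose number limits the precision of a value. Disagreement between probes of a gene and array scaling limit it too.

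The members, gene lists and tests were chosen with earlier results of these data known. Named genes are the predictors, the 3 closest and the 2 loosest of each complex, the 5 widest and the 3 narrowest, and tissue forms. Genes with disagreeing probes, the 3 with the highest r with a chromosome neighbour, and assembly factors are also named. Of most lists, the 2 that follow the members most and the 1 that follows least are named. Others named were chosen after their values were seen, as was the set of alternatives that leaves out genes with disagreeing probes.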

Additional observations from a re-analysis of the deposited data

How the results depend on the processing

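Of 170 recomputed correlations and spreads 141 lay inside the 95% interval over mice of the reported value, 29 lay outside it and 0 turned sign. Of 88 counts of members that followed a predictor 1 changed by over 1.5 times, and of 88 counts that ran against one 8 did. The difference of mean r within minus between complexes stayed above 0 in all 15 settings, from 0.0115 to 0.0323. With the probe of largest SD per gene the mean r was 0.176 within complex I, 0.188 within complex V, 0.247 within all complexes and 0.214 between, the difference 0.0323, and r of the means of complexes I and V 0.781. With arrays centred and scaled the values were 0.291 within complex IV, 0.246 within, 0.226 between, 0.789 for the means of I and V and 0.0525 for the median SD. Without assembly factors and tissue-restricted forms they were 0.474 within complex IV, 0.323 within, 0.311 between and 0.832 for the means of IV and V. The means of IV and V stood at 0.730 with no centring, 0.822 without the first principal component (10.8% of variance) and 0.842 without genes whose probes correlate under 0.3, an alternative added after the data were seen, which put the means of I and V at 0.798. Without the filter on missing values the means of I and V stood at 0.791. The median SD was 0.0499 from the median absolute deviation. Leaving out each block in turn gave 0.209 to 0.249 within complex I, 0.314 to 0.340 within IV, 0.283 to 0.321 within V and 0.0115 to 0.0295 for within minus between. Members that ran against Atp5b numbered 6 with 2 marker clusters as the factor and 1 with ranks. With the mouse number as a covariate 1 ran against each of Ppargc1a, the mitochondrial ribosome mean and the TCA cycle mean, and with scaled arrays 4 ran against the last. With the first component as a covariate 3 ran against Esrra, 1 against fat storage and 0 with macrophages (main 2 with limma). The causes were not tested. No paired analysis was possible because the labels give 1 group. The signal over background of single probes was not analysed here, so dim probes cannot be told from bright ones.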
